A study of Mus musculus with 30 samples.

Results

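WT2 and WT3 are clonal lines of J774A.1, a mouse macrophage-like cell line, and the transcriptional responses of these lines to interferon-gamma (IFNG) were compared with each other. Each line was expanded from a single wild-type cell by limiting dilution without electroporation, so each represents 1 clone. Cells were either untreated (UT) or received mouse IFNG at 100 ng/mL for 4 h, and polyA RNA was sequenced in 3 libraries for each clone and treatment. The 12 libraries of WT2 UT, WT2 IFNG, WT3 UT and WT3 IFNG were taken by their labels from the 30 libraries of the study, which also hold a further wild-type clone (WT1) and 2 clones with a homozygous deletion of B2_Mm2.Dicer1, a transposable element in the Dicer1 locus (KO1 and KO2). WT2 and WT3 do not carry this deletion. Columns of the count table carry no replicate number, and the WT2 columns are headed wtc1 and were taken as WT2 because the table deposited for WT2 holds the same 6 columns. Libraries are therefore numbered here from 1 to 3 by column order. Nothing in the labels places the libraries of a group in separate experiments, so p-values measure the spread between these libraries, which may be technical.

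IFNG binds a receptor made of IFNGR1 and IFNGR2, and the kinases JAK1 and JAK2 on this receptor start a signal that ends at gamma-activated sites (GAS) in promoters and enhancers. Genes induced through these sites include those of further transcription factors such as IRF1. IRF1 and related factors bind interferon-stimulated response elements (ISREs), and the genes induced in this way are called interferon-stimulated genes (ISGs). In macrophages they include large GTPases that attack vacuoles with pathogens, antiviral proteins, chemokines and the machinery of antigen presentation.

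Counted fragments per library ranged from 15566122 to 27490220, with mitochondrial genes taking 3.24% to 3.76% of them. All 12 macrophage markers had a mean of at least 1 CPM, the count scaled to a common library total,, and their summed level ranged from 6113 to 6811 CPM over the 12 libraries. Summed markers of other cell types reached at most 3.16 CPM for neutrophils, 1.31 CPM for fibroblasts, 0.387 CPM for B cells, 0.169 CPM for T cells, 0.125 CPM for epithelial cells and 0.0644 CPM for erythroid cells. The WT3 IFNG libraries stood furthest apart from each other, with a chi-square of 5.71 to 19.7 per degree of freedom between pairs against 1.94 to 6.10 in the other 3 groups. Over 8885 genes with at least 10 CPM, library 1 of WT3 IFNG departed from the other two with an SD of 0.119 on the log2 scale, and these departures correlated with the GC content of the transcript across genes (r = 0.584). Library 3 departed nearly as far, with an SD of 0.117 and r = -0.391, and library 2 with an SD of 0.0954 and r = -0.254. In WT2 IFNG, libraries 2 and 3 departed with GC content in opposite directions (r = -0.44 and r = 0.515). Results are given below with and without library 1 of WT3 IFNG where it changes them.

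To ask where the clones differed, the IFNG response of each gene was measured as a log2 fold change (log2FC, IFNG against UT) in each clone, and the difference of the responses (WT2 minus WT3) was tested as an interaction of clone and treatment. A difference was called when its p-value from the quasi-likelihood test of edgeR, adjusted over all genes to control the false discovery rate (FDR), was below 0.05. Of 13586 genes tested, 19 had a different response (0.14%). The response was lower in WT2 for 16 of these genes and higher in WT2 for 3. Members of the gene lists used below were 5 of the 19: the GTPase genes Gbp3, Igtp and Ifi47 and the antiviral genes Ifi44 and Rtp4. These 5 genes and Ifi203, Epsti1, Parp9, Gm8995, Gm28177, Gsap, Fchsd2, Enc1 and Bmp2k rose in both clones, and rose less in WT2. Rp2 and Jade3 rose in WT3 and did not pass the test in WT2. Tbk1 rose in WT2 and did not pass the test in WT3, while Cytip and Ets2 fell in both clones and fell less in WT2. The differences spanned 0.284 to 0.804 on the log2 scale in absolute size. At an unadjusted p under 0.05 there were 1140 genes, of which 613 had a higher and 527 a lower response in WT2.

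The number of calls depended on single libraries. Leaving out library 1 of WT3 IFNG gave 178 genes (1.29% of 13780 tested), 94 lower and 84 higher in WT2, including all 19. Counts were 7 without library 1 of WT2 UT, 10 without library 2 of WT2 UT, 9 without library 1 and 10 without library 2 of WT3 UT, and 10 without library 2 of WT3 IFNG. The other leave-one-out counts ranged from 13 to 23. Every one of the 19 differences kept its sign in each of these fits. Ifi44, Gbp3, Enc1, Rp2, Ifi203 and Tbk1 passed the test in all 12 of them.

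Both clones responded broadly. In WT2, 4407 genes passed the test (32.4%), 2250 higher (16.6%) and 2157 lower (15.9%) after IFNG. In WT3, 5232 genes passed (38.5%), 2529 higher (18.6%) and 2703 lower (19.9%). Levels differed between the clones at far more genes than responses did: 1750 genes (12.9%) in untreated cells, 772 of them higher in WT2 (5.68% of genes tested), and 2160 genes (15.9%) after IFNG, 954 of them higher (7.02%) and 1206 lower (8.88%) in WT2. The same interaction test gave 162 of 14134 genes between WT1 and WT2 (1.15%), 263 of 14413 between WT1 and WT3 (1.82%) and 22 of 14370 between KO1 and KO2 (0.153%). Pairs of WT clones share libraries, so these counts are not independent of each other.

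**Figure D1:**
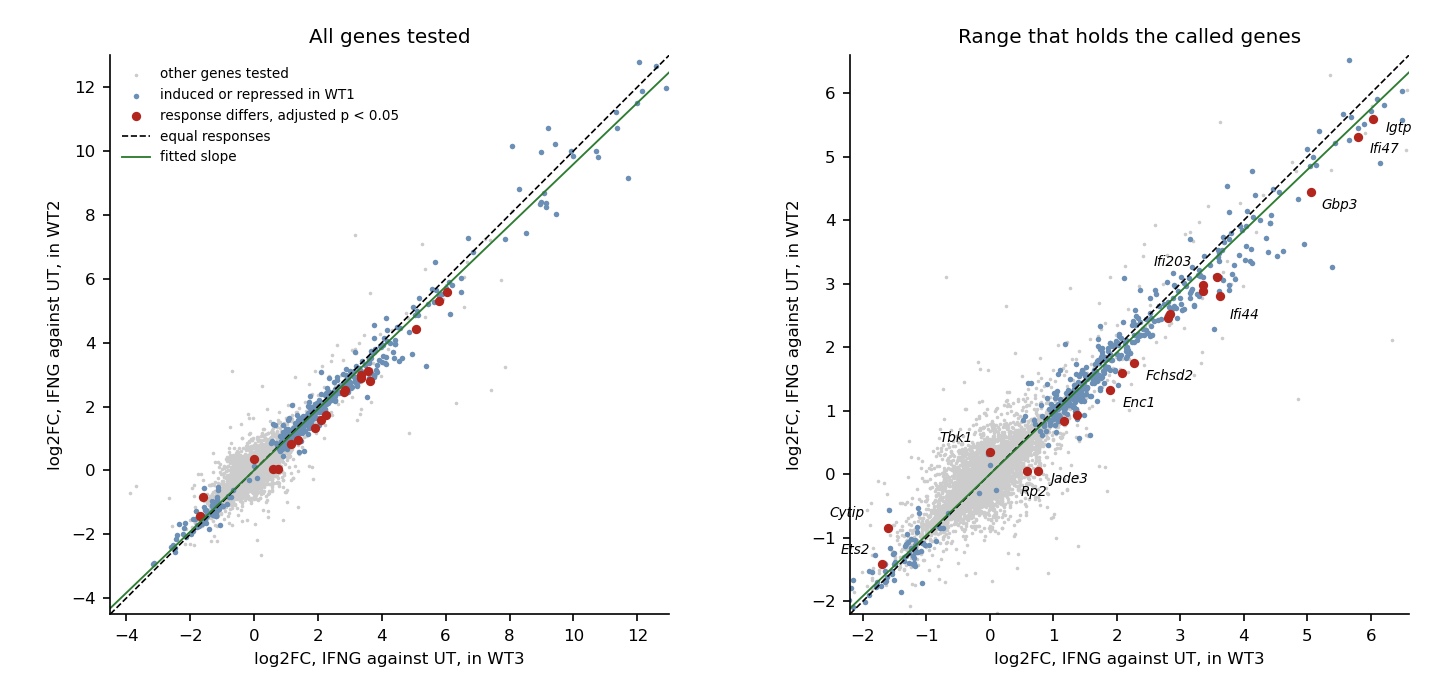
Response to IFNG in WT2 (y axis, log2FC) against WT3 (x axis, log2FC), for all 13586 genes tested (left) and for the range of the called genes (right). Red points are the 19 genes whose response differed, blue points the 496 genes induced or repressed in WT1, the dashed line marks equal responses and the green line the fitted slope of 0.959. Most red points with a positive log2FC lie below the dashed line.

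The overall scale of the response was read from genes chosen in WT1, a clone outside the comparison: genes past the test in the 6 WT1 libraries with an absolute log2FC above 1 and a mean of at least 1 CPM over the 12 libraries. A slope through the origin, fitted by total least squares over these 496 genes, gave 0.959 log2 units in WT2 for each log2 unit in WT3 (Pearson r = 0.990 across genes, which are not independent replicates). The slope was 0.960 over the 416 induced genes and 0.937 over the 80 repressed genes. Over the 306 induced genes with at least 1 CPM in both untreated clones it was 0.940. No test was made of the slope. Slopes were also taken from single IFNG libraries of 1 clone at a time, on log2(CPM + 1) values with untreated means kept fixed. The root of the summed variances of both clones was 0.0145. This value leaves out the spread of the untreated libraries. Without library 1 of WT2 UT the slope was 0.977.

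Among the 416 genes induced in WT1, 408 rose in WT2 and 411 in WT3. Their median log2FC was 1.92 in WT2, 1.97 in WT3 and 1.82 in WT1. The median difference in response was -0.12 (WT2 minus WT3), beside 0.011 over all genes tested. Differences were below 0 for 294 of the 416 genes (70.7%) against 46.5% of all genes. Of the 16 genes called lower in WT2, 12 were among these induced genes, and 0 were called higher. Taken by the size of the response in WT1, the median difference was -0.093 over 230 genes with a WT1 log2FC of 1 to 2, -0.20 over 127 genes from 2 to 4, and -0.35 over 59 genes above 4, whose median log2FC was 6.03 in WT2 and 6.49 in WT3. Many of the strongest genes are close to 0 CPM in untreated cells, where a log2FC is imprecise. The 19 genes above 4 that had at least 1 CPM in both untreated clones had a median difference of -0.37, with 18 of them below 0.

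Read per library, the median change of the 59 strongest genes on the log2(CPM + 1) scale was 4.69, 4.66 and 4.68 in the WT2 IFNG libraries and 4.84, 4.83 and 4.83 in the WT3 IFNG libraries. These ranges did not overlap. Each value was taken against the untreated mean of its clone, so the ranges in this paragraph leave out the spread of the untreated libraries. Over the 19 of these genes with at least 1 CPM in both untreated clones, the ranges did overlap, at 5.129, 5.048 and 5.035 in WT2 and 5.061, 5.127 and 5.109 in WT3. Over all 416 induced genes the same median was 1.627, 1.626 and 1.639 in WT2 and 1.641, 1.691 and 1.682 in WT3, where library 1 of WT3 lay close to the WT2 libraries. The 80 repressed genes had a median difference of 0.045, with 34 below 0, and medians per library of -1.233 to -1.138 (WT2) and -1.213 to -1.156 (WT3). These overlapped.

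GC content moved with the difference in response. Among genes neither induced nor repressed in WT1, the median difference was -0.047 in the lowest of 3 equal classes of GC content, 0.012 in the middle class and 0.075 in the highest. Induced genes lay lower in each class, at -0.17, -0.13 and -0.033. The 16 genes called lower in WT2 had a median GC content of 46.0% and the 3 called higher 45.4%, against 49.4% over all genes tested. The lowest class held 9 of the 16 and 2 of the 3, and the highest class held 0 of the 19. With 3 genes in 1 direction, a sorting of the calls by direction along GC content could not be judged. When library 1 of WT3 IFNG was left out, 70 of the 94 genes called lower lay in the lowest GC class and 68 of the 84 called higher in the highest, 8 of them ribosomal protein genes. Removing a smooth trend over GC content from each library left 24 calls with all 12 libraries, 17 lower and 7 higher, and 18 of the 19 genes were among them. The gene lost was Ifi47. With the trend removed and library 1 of WT3 IFNG left out, 45 genes passed (0.327%), 32 lower and 13 higher. The median difference over the induced genes, with all 12 libraries kept, was -0.11 once the trend was removed. The part of GC content in the remaining differences was not tested.

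**Figure D2:**
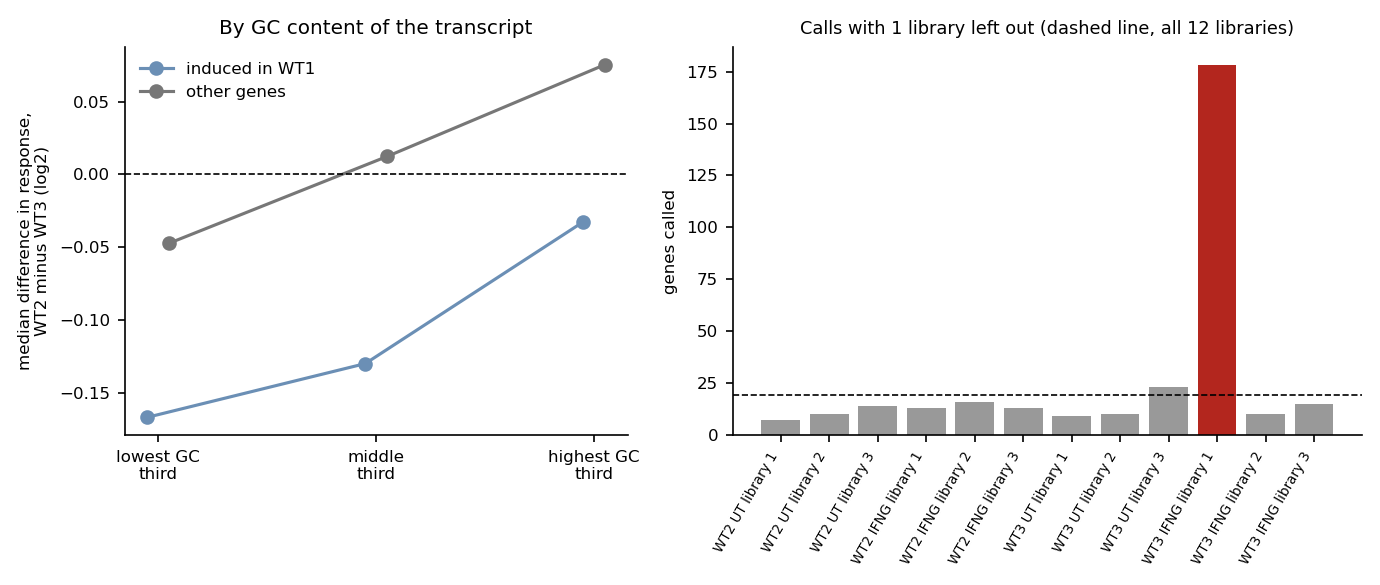
Left, median difference in response (y axis, log2, WT2 minus WT3) in 3 classes of transcript GC content (x axis) for genes induced in WT1 and for other genes, running from -0.17 to -0.033 and from -0.047 to 0.075. Right, number of genes called (y axis) when each library (x axis) was left out, with the 19 calls of all 12 libraries as a dashed line and the 178 calls without library 1 of WT3 IFNG in red.

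None of the 12 receptor, JAK, STAT and IRF genes passed the test of the difference, and their median difference was -0.088 with 10 of 12 below 0. An unadjusted p under 0.05 was found for 5 of them, beside 1140 of all 13586 genes. With library 1 of WT3 IFNG left out 2 of the 12 passed, beside 1.29% of all genes. In DESeq2, with thinned counts and with no filter on low counts 2 passed as well. These fits called 45, 15 and 132 of all genes. Irf1, an early target whose product drives later ISGs, was at 23.3, 24.5 and 21.97 CPM in WT2 UT, 23.6, 22.9 and 21.98 in WT3 UT, 728, 776 and 742 in WT2 IFNG and 794, 770 and 784 in WT3 IFNG. The ranges of the clones overlapped in both treatments. Its log2FC was 5.00 ± 0.046 (SE, n = 3 libraries per group here and below) in WT2 and 5.10 ± 0.046 in WT3, with a difference of -0.094 ± 0.065 (FDR-adjusted p-value = 0.720).

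Gm28177 is a gene model whose exons are shared in large part with another gene on the same strand, and fragments there were counted for both, so its value is not a measurement of this model alone. Irf7, the master factor of type I interferon genes, was at a mean of 10.29 CPM in WT2 UT and 6.008 in WT3 UT. After IFNG the means were 72.34 CPM in WT2 and 59.16 in WT3. WT2 was thus above WT3 in both states, with no overlap of libraries. The level difference was 0.77 on the log2 scale before IFNG and 0.29 after it. The difference in the response of Irf7 was -0.48 ± 0.11 (FDR-adjusted p-value = 0.097). It passed without library 1 of WT3 IFNG (FDR-adjusted p-value = 0.0425) and with the GC trend removed (0.0208). Among 8 feedback inhibitors tested, which include the JAK inhibitor Socs1 and the ISG15 protease Usp18, 0 passed and the median difference was -0.020.

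Guanylate-binding proteins (GBPs) are large GTPases that coat pathogen vacuoles and bacteria. All 11 rose in both clones, and all 11 differences in response were below 0, with a median of -0.62. Of these, 1 gene, Gbp3, passed the test, and 8 had an unadjusted p under 0.05, beside 1140 of all 13586 genes. Leaving out library 1 of WT3 IFNG, 4 passed (Gbp2, Gbp3, Gbp7 and Gbp9), beside 1.29% of all genes. With the GC trend removed as well only Gbp3 did, beside 0.327%. DESeq2 called 2 of the 11, beside 45 of all genes. The fit with no filter on low counts called 4, beside 132 of all genes. Over the 6 members with at least 1 CPM in both untreated clones the median was -0.59. After IFNG, 8 of 11 GBPs were at a lower level in WT2 by the test, beside 8.88% of all genes, and untreated 2 of 11 were at a higher level, beside 5.68%.
Gbp3 (chr3:142560026-142573209, plus strand, mm10) was at 12.5, 12.6 and 12.4 CPM in WT2 UT and at 9.72, 9.79 and 8.71 in WT3 UT. It was at 262, 275 and 278 CPM in WT2 IFNG and at 298, 318 and 333 in WT3 IFNG. WT2 was thus above WT3 before IFNG and below it after IFNG, with no overlap of libraries in either state. It rose 21.7-fold in WT2 and 33.3-fold in WT3, a difference of -0.62 ± 0.088 (FDR-adjusted p-value = 0.00191). Gbp2b, a marker gene of the response, was at 3.74, 3.30 and 2.79 CPM in WT2 UT and at 2.41, 2.89 and 2.92 in WT3 UT, and at 1129, 1097 and 1106 CPM in WT2 IFNG and 1294, 1306 and 1514 in WT3 IFNG. Its difference of -0.59 ± 0.17 did not pass the test (FDR-adjusted p-value = 0.263).

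The immunity-related GTPases (IRGs) act with the GBPs on vacuoles. All 13 rose in both clones. The difference was below 0 for 11 of 13, with a median of -0.36, and Igtp and Ifi47 passed. In the fits without library 1 or 2 of WT2 UT or of WT3 UT, 0 of the 13 passed. These fits called 7 to 10 of all genes. Without library 1 of WT3 IFNG, 5 passed (Igtp, Ifi47, Irgm1, Irgm2 and 9930111J21Rik2), beside 1.29% of all genes. With the GC trend removed as well 2 did (Igtp and Irgm2), beside 0.327%. In DESeq2, 5 passed, beside 45 of all genes. Igtp (chr11:58199556-58207591, plus strand), which encodes the regulatory GTPase IRGM3, was at 9.52, 9.93 and 8.93 CPM in WT2 UT and at 7.74, 7.78 and 8.49 in WT3 UT. After IFNG it was at 468, 450 and 463 CPM in WT2 and at 517, 524 and 523 in WT3, and the clones did not overlap. It rose 48.4-fold in WT2 and 65.4-fold in WT3, a difference of -0.44 ± 0.079 (FDR-adjusted p-value = 0.0226). Without library 1 or 2 of WT2 UT, or library 1 or 2 of WT3 UT, it no longer passed, with FDR-adjusted p-values up to 0.162. Exons of Igtp and Irgm2 overlap over 8.0% of Igtp on the same strand.
Ifi47 (chr11:49076587-49096974, plus strand) encodes the GTPase IRG-47. It was at 7.52, 7.65 and 8.36 CPM in WT2 UT, above the 5.73, 5.16 and 5.73 CPM of WT3 UT, and at 322, 306 and 308 CPM in WT2 IFNG against 303, 315 and 303 in WT3 IFNG, where the clones overlapped. The difference in response was -0.47 ± 0.093 (FDR-adjusted p-value = 0.0368). It passed without library 1 of WT2 IFNG, library 3 of WT3 UT, or library 1 or 3 of WT3 IFNG, and failed without any one of the other 8 libraries, with FDR-adjusted p-values up to 0.199. With the GC trend removed it was -0.43 (FDR-adjusted p-value = 0.0597). Irgm2 (-0.39 ± 0.083, FDR-adjusted p-value = 0.0646) and Irgm1 (-0.26 ± 0.058, FDR-adjusted p-value = 0.097), the other regulatory GTPases of the family, missed the threshold with all 12 libraries. Both passed without library 1 of WT3 IFNG (FDR-adjusted p-value = 0.0109 for each).

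Of 25 antiviral ISGs tested, 24 had a positive estimate of the untreated level difference (WT2 minus WT3), with a median of 0.38. The untreated level was higher in WT2 by the test for 14 of 25, beside 5.68% of all genes. After IFNG the median level difference was 0.10, 9 were higher and 2 lower in WT2 by the test, beside 7.02% and 8.88% of all genes. By the tests 24 of the 25 rose in WT2 and 25 in WT3. The difference in response was below 0 for 23 of 25, with a median of -0.30. An unadjusted p under 0.05 was found for 13, beside 1140 of all 13586 genes. Ifi44 and Rtp4 passed. In the fits without library 1 or 2 of WT2 UT or of WT3 UT, only Ifi44 passed. These fits called 7 to 10 of all genes. Without library 1 of WT3 IFNG, 5 passed, namely Ifi44, Rtp4, Oasl2, Ifih1 and Ifi204, beside 1.29% of all genes. With the GC trend removed as well 4 did, namely Ifi44, Rtp4, Oasl2 and Oas3, beside 0.327%.
Ifi44 (chr3:151730922-151749960, minus strand) encodes an interferon-induced cytoplasmic protein. It had the largest and the most significant difference of the 16 genes that responded less in WT2. It was at 23.2, 22.7 and 21.8 CPM in WT2 UT and at 13.4, 13.9 and 14.3 in WT3 UT. After IFNG it was at 160, 163 and 154 CPM in WT2 and at 152, 179 and 179 in WT3. The untreated libraries of the clones were apart and the IFNG libraries overlapped. It rose 7.03-fold in WT2 and 12.3-fold in WT3, a difference of -0.80 ± 0.094 (FDR-adjusted p-value = 0.000279). Its neighbour Ifi44l had a difference of -0.79 ± 0.17, just outside the threshold (FDR-adjusted p-value = 0.0611).
Rtp4, which encodes a transporter-like protein induced by interferons, was at 8.26, 8.92 and 8.99 CPM in WT2 UT and at 6.77, 6.34 and 7.03 in WT3 UT, and at 64.5, 66.0 and 64.2 CPM in WT2 IFNG and 66.1, 71.4 and 70.0 in WT3 IFNG. The clones overlapped neither before nor after IFNG. Its difference was -0.47 ± 0.095 (FDR-adjusted p-value = 0.0443), and it passed only without library 3 of WT3 UT or library 1 of WT3 IFNG among the leave-one-out fits. In one fit over all 30 libraries its FDR-adjusted p-value was 0.476. Oasl1, which encodes a relative of the oligoadenylate synthases that inhibits Irf7 translation, was the antiviral gene furthest apart in level, at 5.84 to 6.13 CPM in WT2 UT and 0.504 to 0.787 in WT3 UT and at 14.6 to 16.9 CPM in WT2 IFNG and 2.21 to 3.28 in WT3 IFNG. Its response difference of -0.61 ± 0.26 did not pass (FDR-adjusted p-value = 0.528).

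Ifi203 (chr1:173920407-173942672, minus strand) belongs to the interferon-inducible p200 family of DNA-binding proteins. It was at 82.9, 83.8 and 79.9 CPM in WT2 UT and at 69.9, 64.1 and 65.5 in WT3 UT. After IFNG it was at 722, 719 and 692 CPM in WT2 and at 711, 850 and 818 in WT3, where library 1 of WT3 fell inside the WT2 range. The difference was -0.46 ± 0.075 (FDR-adjusted p-value = 0.00902). Members of this family are near-identical in part, so uniquely aligned fragments may split unevenly between them, and Ifi203 also overlaps its neighbour Mndal by 37 bases. Mndal was the first gene outside the threshold (-0.49 ± 0.10, FDR-adjusted p-value = 0.0513).

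Parp9, Gm8995 and Gsap lay outside the rule for naming and were added after their values were seen. Parp9 encodes a mono-ADP-ribosyltransferase that works with Dtx3l, whose gene overlaps it on the opposite strand. It had a difference of -0.34 ± 0.066 (FDR-adjusted p-value = 0.0368), with WT2 at 233 to 237 CPM after IFNG and WT3 at 239 to 271. Gm8995 had -0.37 ± 0.065 (FDR-adjusted p-value = 0.0142), with WT2 at 698 to 737 CPM after IFNG and WT3 at 798 to 920. Gsap, which encodes the gamma-secretase activating protein, had -0.43 ± 0.083 (FDR-adjusted p-value = 0.0368), with WT2 at 38.8 to 42.0 CPM after IFNG and WT3 at 44.8 to 49.9. The clones did not overlap after IFNG for any of these genes. Without library 1 of WT2 UT or library 1 or 2 of WT3 UT, Gm8995 failed (FDR-adjusted p-value up to 0.0714). Parp9 passed only without library 3 of WT2 UT, library 3 of WT3 UT, or library 1 or 3 of WT3 IFNG, and Gsap only without library 2 of WT2 IFNG, library 3 of WT3 UT or library 1 of WT3 IFNG.

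Enc1, Fchsd2, Epsti1 and Bmp2k also rose less in WT2. Enc1 (chr13:97241105-97253034, plus strand) encodes an actin-associated adaptor of ubiquitin ligases. It was at 20.2, 19.9 and 17.8 CPM in WT2 UT and at 17.8, 16.2 and 16.9 in WT3 UT, and at 49.9, 47.9 and 48.4 CPM in WT2 IFNG and 64.5, 61.7 and 63.7 in WT3 IFNG. The clones met only in untreated cells. It rose 2.52-fold in WT2 and 3.72-fold in WT3, a difference of -0.57 ± 0.080 (FDR-adjusted p-value = 0.00191). Fchsd2 (chr7:101092863-101284405, plus strand), which encodes a membrane-bending adaptor of endocytosis, was at 17.9, 19.1 and 17.9 CPM in WT2 UT and at 19.3, 20.5 and 18.4 in WT3 UT, and at 58.0, 62.7 and 64.2 CPM in WT2 IFNG and 85.1, 101 and 96.0 in WT3 IFNG. Its difference was -0.52 ± 0.095 (FDR-adjusted p-value = 0.0229). The clones were apart after IFNG and overlapped before it. Fchsd2 was the 1 gene of the 16 whose untreated estimate was lower in WT2.
Fchsd2 failed without library 1 or 2 of WT2 UT, library 1 of WT2 IFNG, library 1 of WT3 UT or library 2 of WT3 IFNG (FDR-adjusted p-value up to 0.151). Epsti1, an interferon-induced gene first known from epithelial and stromal cells, was at 12.2 to 12.7 CPM in WT2 UT and 8.497 to 9.005 in WT3 UT and at 36.01 to 37.8 CPM in WT2 IFNG and 34.6 to 38.9 in WT3 IFNG. The clones were apart before IFNG and overlapped after it, and the difference in response was -0.49 ± 0.096 (FDR-adjusted p-value = 0.0368). It passed only without library 3 of WT3 UT or library 1 of WT3 IFNG.
Bmp2k, which encodes a kinase of the endocytic and autophagy machinery, was at 192, 185 and 185 CPM in WT2 UT and at 157, 159 and 153 in WT3 UT. After IFNG it was at 345, 333 and 325 CPM in WT2 and at 332, 370 and 351 in WT3, which overlapped. Its difference was -0.33 ± 0.056 (FDR-adjusted p-value = 0.0111), and without library 1 of WT2 UT the FDR-adjusted p-value was 0.0690.

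Rp2 and Jade3 are neighbours on the X chromosome, 20034 bases apart and on the same strand, and both responded in WT3 alone by the tests. Rp2 (chrX:20364481-20405653, plus strand) encodes a GTPase-activating protein for ARL3 that acts at cilia and the Golgi. It was at 54.5, 55.5 and 51.6 CPM in WT2 UT, 51.2, 51.9 and 52.4 in WT3 UT, 57.4, 58.1 and 52.3 in WT2 IFNG and 72.3, 78.2 and 83.8 in WT3 IFNG. The first 3 groups overlapped and the WT3 IFNG libraries stood above all of them. Its log2FC was 0.051 ± 0.055 in WT2 and 0.59 ± 0.052 in WT3, a difference of -0.54 ± 0.076 (FDR-adjusted p-value = 0.00191).
Jade3 (chrX:20425688-20519939, plus strand), which encodes a scaffold of the HBO1 histone acetyltransferase complex, was at 9.57, 8.58 and 9.44 CPM in WT2 UT, 9.36, 8.92 and 8.09 in WT3 UT, 10.4, 8.83 and 9.28 in WT2 IFNG and 14.4, 15.5 and 15.1 in WT3 IFNG. Again only the WT3 IFNG libraries stood apart. Its log2FC was 0.056 ± 0.096 in WT2 and 0.76 ± 0.085 in WT3, and the difference of -0.70 ± 0.13 (FDR-adjusted p-value = 0.0226) failed in 6 leave-one-out fits, without library 1 or 3 of WT2 UT, library 2 or 3 of WT2 IFNG, library 2 of WT3 UT or library 2 of WT3 IFNG (FDR-adjusted p-value up to 0.0871). In WT1 the log2FC was 0.087 for Rp2 and -0.11 for Jade3, close to WT2. Of the 12 other genes tested within 500000 bases on either side, 0 passed the test of the difference, and 5 had differences below 0. These neighbours were looked up after the values of Rp2 and Jade3 were seen.

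A higher response in WT2 was found for 3 genes. Tbk1 (chr10:121546455-121586787, minus strand) encodes a kinase that phosphorylates IRF3 downstream of nucleic acid sensors. It was at 82.5, 80.0 and 83.9 CPM in WT2 UT and at 86.2, 88.4 and 84.5 in WT3 UT, and at 102, 106 and 105 CPM in WT2 IFNG against 84.5, 84.0 and 90.4 in WT3 IFNG. WT2 was below WT3 before IFNG and above it after IFNG, without overlap. It rose by 1.27-fold in WT2, while its log2FC in WT3 was -0.0035 ± 0.040. The difference of 0.35 ± 0.057 (FDR-adjusted p-value = 0.00902) passed in all alternatives tried. Its log2FC was 0.061 ± 0.062 in WT1, 0.285 ± 0.044 in KO1 and -0.0099 ± 0.048 in KO2.
Cytip (chr2:58129137-58195532, minus strand) encodes an adaptor that binds the integrin regulator cytohesin-1 and is induced in dendritic cells on maturation. It was at 24.83, 27 and 28.05 CPM in WT2 UT and at 25.82, 26.01 and 29.96 in WT3 UT, which overlapped. After IFNG it was at 15.6, 14.5 and 14.4 CPM in WT2 and at 10.2, 7.43 and 8.93 in WT3, and the clones were apart. It fell by 0.84 ± 0.087 on the log2 scale in WT2 and by 1.6 ± 0.090 in WT3, a difference of 0.76 ± 0.13 (FDR-adjusted p-value = 0.0111). It failed without library 1 of WT2 UT or library 1 of WT2 IFNG (FDR-adjusted p-value up to 0.0518) and in one fit over all 30 libraries (0.674).
Ets2, which encodes a transcription factor downstream of growth factor signalling, was at 209, 206 and 208 CPM in WT2 UT and at 213, 214 and 223 in WT3 UT, and at 78.1, 75.5 and 80.7 CPM in WT2 IFNG and 66.7, 67.8 and 66.0 in WT3 IFNG. It fell in both clones, and its difference of 0.28 ± 0.053 (FDR-adjusted p-value = 0.0235) passed only without library 2 of WT2 IFNG or library 1 of WT3 IFNG among the leave-one-out fits. Over all 30 libraries in one fit its FDR-adjusted p-value was 0.596.

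**Figure D3:**
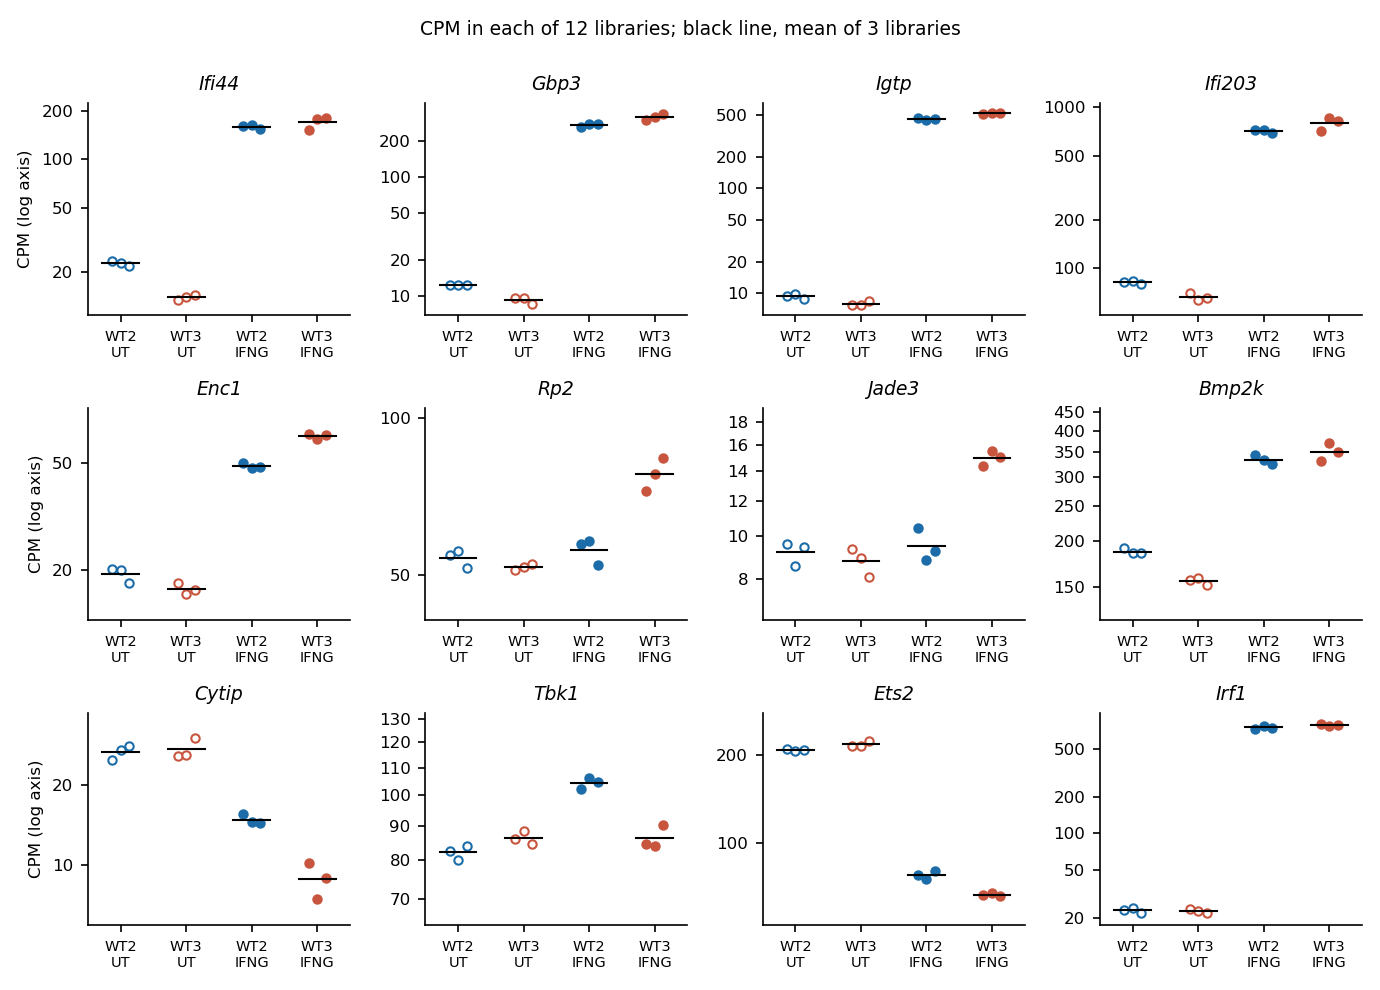
CPM (y axis, log scale) in each library of WT2 (blue) and WT3 (red), untreated (open) or after IFNG (filled), for 11 genes whose response differed and for Irf1, whose response did not pass the test. Black lines are means of 3 libraries. Ifi44 was at 21.8 to 23.2 CPM in WT2 UT and 13.4 to 14.3 in WT3 UT, and Rp2 and Jade3 stood apart only in WT3 IFNG.

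A difference in response is the level difference after IFNG minus the level difference before it. The 16 genes with a lower response in WT2 showed both components. The untreated estimate was higher in WT2 for 15 of 16, and 10 passed the test there. The estimate after IFNG was lower in WT2 for 15 of 16, and 11 passed. Both passed for 5 genes, namely Gbp3, Ifi203, Igtp, Gsap and Parp9. For Ifi44, Epsti1, Ifi47, Rtp4 and Bmp2k only the untreated level passed, and for Enc1, Fchsd2, Rp2, Jade3, Gm8995 and Gm28177 only the level after IFNG passed. Tbk1, Cytip and Ets2 passed after IFNG and not before it. These genes were selected on the difference of the same values, so the split is a description. Over the 416 genes induced in WT1, 61 were higher and 27 lower in untreated WT2, beside 772 and 978 of all 13586 genes tested. After IFNG, 41 were higher and 111 lower in WT2, beside 954 and 1206 of all 13586 genes.

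**Figure D4:**
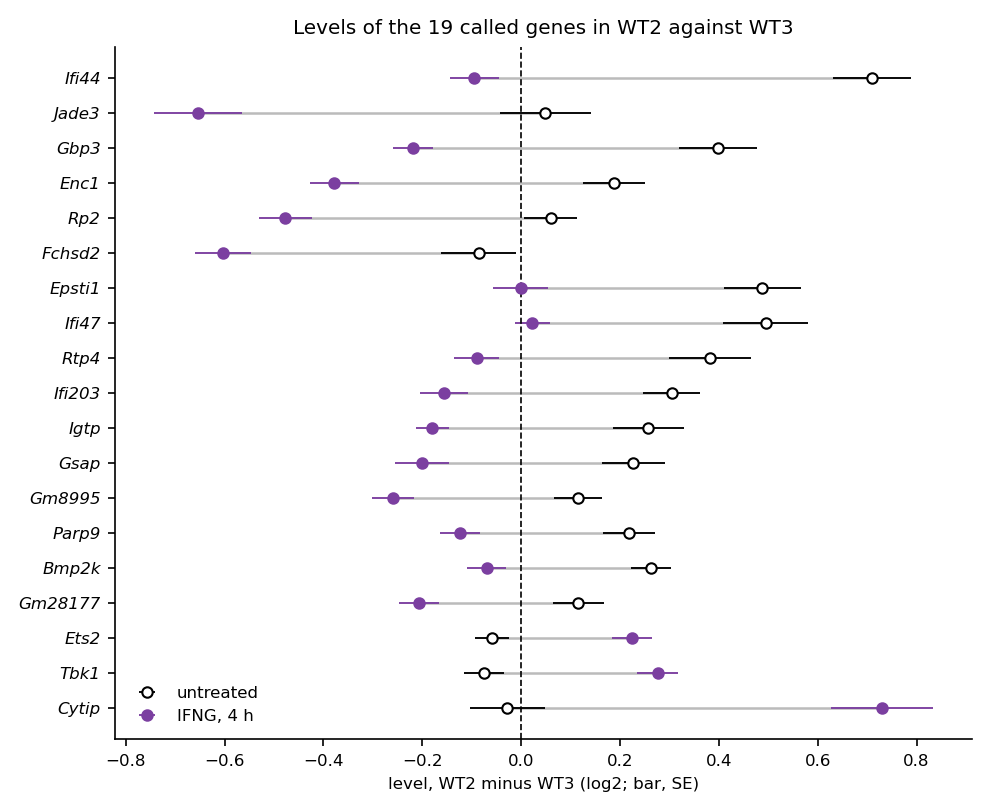
Level of each of the 19 called genes in WT2 minus WT3 (x axis, log2, bars are SE) in untreated cells (open) and after IFNG (filled). Ifi44 moved from 0.71 to -0.094 and Jade3 from 0.049 to -0.65, while Cytip moved from -0.028 to 0.73.

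Promoters were read to show which letters of the IFNG response elements stand near the starts of these genes. The windows run from 250 bases before to 50 bases after a RefSeq start (GRCm38.p6), and the motifs searched on both strands were GAS (TTCNNNGAA) and an ISRE-like run (GAAANNGAA). Windows were found for 11 of the 16 genes with a lower response in WT2 and for all 3 with a higher one. The ISRE-like letters stood in 5 of these 11 genes, against 9.76% of 27025 genes with a window and 30.1% of the 279 WT1-induced genes with one. Counted by window they stood in 5 of 13, against 8.56% of 32851 windows and 25.8% of the 360 windows of WT1-induced genes. GAS letters stood in 1 of the 11, against 9.55% of all and 18.3% of the induced genes. The windows shown are from 4 ISGs that responded less in WT2 and from Cytip, each 5′ to 3′ on the strand of the gene with the motif in capitals. Gbp3 holds the ISRE-like letters from -44 and again from -38, counted with the start as 0, and these 2 matches overlap. Igtp holds GAS from -45 and the ISRE-like letters from -34, Ifi203 the latter from -35, Ifi44 from -3, and Cytip from -176 and -145. The windows lie at chr3:142559794-142560093 (plus strand) for Gbp3, chr11:58199306-58199605 (plus) for Igtp, chr1:173942443-173942742 (minus) for Ifi203, chr3:151749861-151750160 (minus) for Ifi44 and chr2:58160073-58160372 (minus) for Cytip. Gbp3 and Ifi203 each have another window that holds neither motif and is not shown. The Cytip window lies inside the gene span given above. Letters alone do not show binding.
Gbp3: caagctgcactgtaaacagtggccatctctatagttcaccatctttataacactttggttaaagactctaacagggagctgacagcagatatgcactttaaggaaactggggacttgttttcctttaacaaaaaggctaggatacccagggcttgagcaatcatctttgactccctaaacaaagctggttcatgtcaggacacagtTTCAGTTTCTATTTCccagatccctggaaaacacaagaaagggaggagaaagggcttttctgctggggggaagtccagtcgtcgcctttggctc
Igtp: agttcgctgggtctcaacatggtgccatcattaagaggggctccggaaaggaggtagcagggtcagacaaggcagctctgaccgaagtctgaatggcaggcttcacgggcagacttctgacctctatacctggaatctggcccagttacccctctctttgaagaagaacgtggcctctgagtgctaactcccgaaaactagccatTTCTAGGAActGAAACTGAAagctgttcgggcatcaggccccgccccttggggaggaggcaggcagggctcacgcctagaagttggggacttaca
Ifi203: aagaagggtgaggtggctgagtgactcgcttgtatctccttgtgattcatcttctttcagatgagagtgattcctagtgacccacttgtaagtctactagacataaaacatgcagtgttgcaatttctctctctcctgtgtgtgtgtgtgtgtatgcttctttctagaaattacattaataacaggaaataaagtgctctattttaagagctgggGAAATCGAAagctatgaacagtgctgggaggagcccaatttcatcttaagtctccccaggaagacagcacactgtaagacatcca
Ifi44: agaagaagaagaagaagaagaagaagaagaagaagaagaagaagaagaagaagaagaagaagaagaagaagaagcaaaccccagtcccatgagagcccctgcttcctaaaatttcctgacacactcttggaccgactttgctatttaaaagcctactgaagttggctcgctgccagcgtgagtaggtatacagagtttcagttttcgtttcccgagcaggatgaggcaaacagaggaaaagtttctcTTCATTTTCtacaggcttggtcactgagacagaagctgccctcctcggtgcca
Cytip: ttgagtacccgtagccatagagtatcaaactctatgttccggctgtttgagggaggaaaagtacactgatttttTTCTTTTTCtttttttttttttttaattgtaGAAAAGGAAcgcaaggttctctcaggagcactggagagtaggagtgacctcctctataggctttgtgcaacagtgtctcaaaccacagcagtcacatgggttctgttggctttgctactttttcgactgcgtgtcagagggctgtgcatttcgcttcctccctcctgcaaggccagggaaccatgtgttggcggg

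All 13 genes of MHC class I presentation rose in both clones, with a median log2FC of 0.58 in WT2 and 0.66 in WT3 and a median difference of -0.054. In edgeR 0 of the 13 passed the test of the difference and 0 had an unadjusted p under 0.05. The median standard error of a difference was 0.076 over genes with at least 10 CPM, so small differences were not detectable at this depth. Ciita, the master regulator of MHC class II genes, had 27 counts in all 12 libraries together and was not tested. Of 12 chemokines, 8 rose and 4 fell in each clone. The T cell chemoattractant Cxcl9 was at 0 in all untreated libraries, at 35.1 to 49.98 CPM in WT2 IFNG and at 35.8 to 46.8 in WT3 IFNG, which overlapped. Cd274, which encodes the checkpoint ligand PD-L1, had a difference of -0.37 ± 0.11 (FDR-adjusted p-value = 0.2801).

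Some lists leaned the other way. Of 15 genes of glycolysis and hypoxia, 14 had a difference above 0, with a median of 0.21, and 0 passed. An unadjusted p under 0.05 was found for 8, beside 1140 of all 13586 genes. By the test of each clone alone, 7 of the 15 fell in WT3 and 0 in WT2, beside 19.9% and 15.9% of all genes, and 3 rose in WT3 and 4 in WT2, beside 18.6% and 16.6%. These counts do not test a difference between the clones. Hk2, which encodes the first enzyme of glycolysis, was at 153 to 160 CPM in WT2 IFNG and 122 to 131 in WT3 IFNG with a difference of 0.23 ± 0.058 (FDR-adjusted p-value = 0.135). The glucose transporter gene Slc2a1 had 0.33 ± 0.11 (FDR-adjusted p-value = 0.363). Without library 1 of WT3 IFNG, 5 of the 15 passed, beside 1.29% of all genes. With the GC trend removed as well, 0 passed, beside 0.327%. The median of the list was 0.16 with the GC trend removed and all libraries kept. NF-kB subunits and inhibitors had 12 of 14 differences above 0 and a median of 0.13, or 0.068 with the trend removed. Genes of the integrated stress response had 13 of 14 above 0 and a median of 0.099, or 0.035 with the trend removed. MHC class II genes had a median of 0.25 with 1 of 6 below 0. The median was 0.13 over the 4 with at least 1 CPM in both untreated clones. By the test of each clone, 1 of the 6 rose and 1 fell in WT2, and 0 rose or fell in WT3. Cytokines and inflammatory enzymes had a median of 0.12, or 0.050 over the 8 with at least 1 CPM in both untreated clones. Of these enzymes and cytokines 5 of 11 were below 0, near the 46.5% of all genes. Phagocyte and pattern receptors leaned to a lower response in WT2, with 13 of 16 below 0 and a median of -0.12, or -0.096 with the trend removed. Proliferation genes (0.018, 20 genes), cholesterol synthesis genes (-0.044, 18 genes) and microRNA processing genes (0.0061, 10 genes) had medians nearer to that of all genes, and 0 members of these lists passed. Medians of the GBPs (-0.58), the IRGs (-0.30) and the antiviral ISGs (-0.30) were the 3 lowest of all lists with the trend removed.

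**Figure D5:**
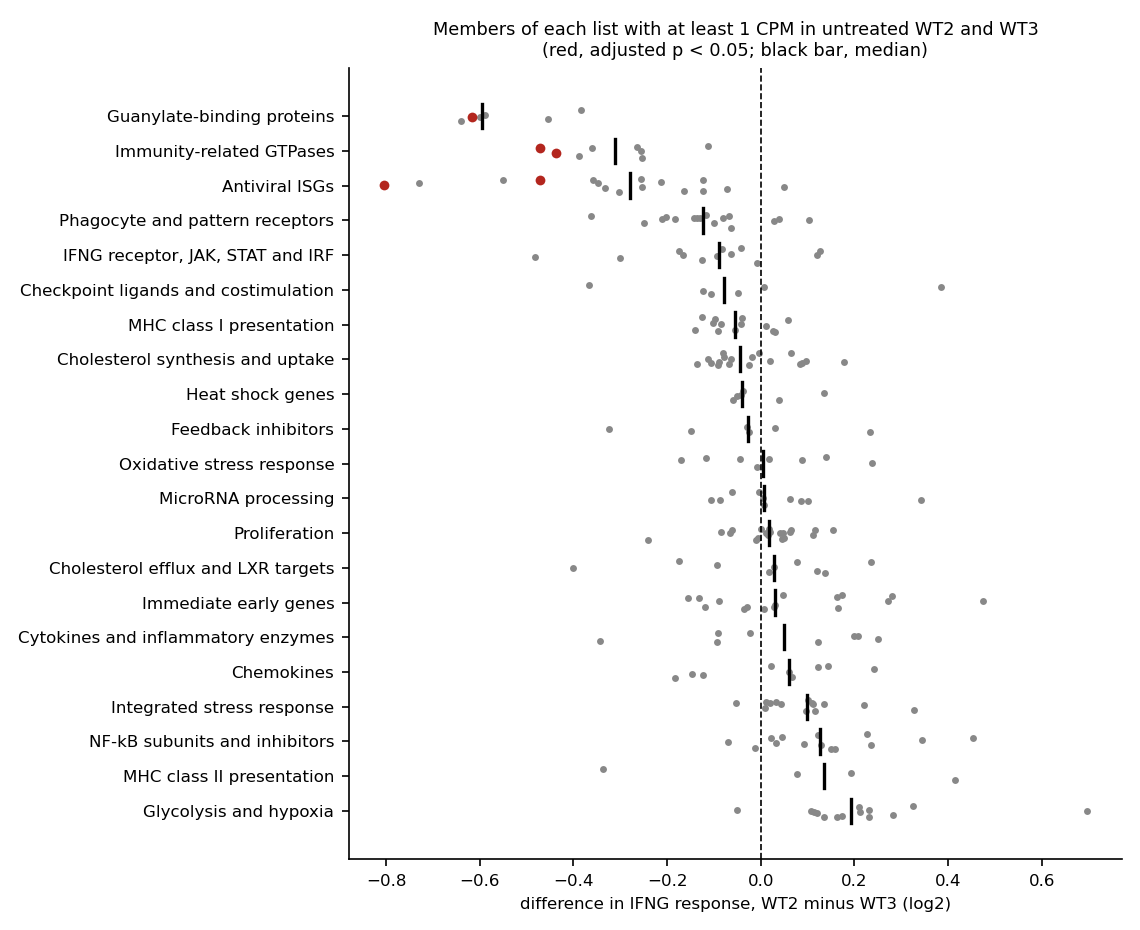
Difference in IFNG response (x axis, log2, WT2 minus WT3) for the members of each fixed gene list with at least 1 CPM in both untreated clones, with the median as a black bar and called genes in red. The GBP members have a median of -0.59, the IRGs -0.31 and the antiviral ISGs -0.28, and the glycolysis and hypoxia genes lie at the other end with 0.19.

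WT1 gives a further view of the called genes. Its response lay below that of WT3 for 12 of the 16 genes with a lower response in WT2, and below that of WT2 for 7 of them. These genes were selected with WT2 below WT3, so a response below WT2 is also below WT3. The first count therefore cannot be the smaller, and the counts do not show which clone stands apart. For Ifi44 the log2FC was 2.86 in WT1, 2.81 in WT2 and 3.62 in WT3, and for Enc1 it was 1.31, 1.33 and 1.90. In KO1 and KO2, which carry the deletion, it was 3.75 and 3.23 for Ifi44 and 1.87 and 1.71 for Enc1. For Gbp3 it was 5.11 in WT1, close to 5.06 in WT3 and above 4.44 in WT2, with 5.68 in KO1 and 5.31 in KO2. WT1, KO1 and KO2 libraries were not part of the test, and no test of these clones against both WT2 and WT3 was made. Dicer1, whose first intron holds the element deleted in KO1 and KO2, was at 126 to 131 CPM in WT2 UT, 122 to 127 in WT3 UT, 160 to 162 in WT2 IFNG and 154 to 174 in WT3 IFNG. It rose in both clones, with a log2FC of 0.32 ± 0.042 in WT2 and 0.38 ± 0.041 in WT3, and the difference of -0.061 ± 0.058 did not pass the test (FDR-adjusted p-value = 0.803).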

How the data were processed

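PolyA RNA of WT2 and WT3 cells, with and without IFNG, was sequenced as stranded paired-end libraries. Per the labels and methods, the authors used BBDuk for trimming and HISAT2 2.1.0 for alignment to mm10, kept unique fragments, merged technical replicates with SAMtools 1.10 and counted exons with featureCounts 1.6.2 on the reverse strand. Fragments over overlapping genes were counted for each gene. The deposited values are raw fragment counts per gene for 54146 genes. The file header names a Gencode annotation and the methods name RefSeq. The labels name more than 1 RNA input and adapter kind without assigning them to libraries, so their part was not tested.

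Counts were filtered with filterByExpr, normalised by TMM and fitted with edgeR 4.0.16 (R 4.3.3) as 4 group means over 12 libraries, with quasi-likelihood tests and Benjamini-Hochberg adjustment. Standard errors are the log2FC divided by the root of F. WT1, KO1 and KO2 libraries entered their own fits. Scripts were tested on simulated data. Alternatives were other scalings and filters, thinned counts, DESeq2 1.42.0, a fit over 30 libraries and each library left out. Removal of length or GC trends was chosen after seeing the data. Genes were named by a fixed rule: the 8 largest differences in each direction and the 8 smallest p-values among called genes with at least 1 CPM, up to 3 called members of each gene list, and Irf1, Gbp2b, Ciita and Dicer1. A further gene of the rule is not reported here. Genes outside it, namely Gsap, Gm8995, Parp9, Gm28177 and other genes whose values are given, were named after their values were seen. The members and gene lists were chosen with earlier results of these data known. Promoters are from RefSeq.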

Additional observations from a re-analysis of the deposited data

Results flagged for a closer look

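The 19 genes below had a different response to IFNG in WT2 and WT3 by the interaction test (edgeR, FDR-adjusted p-value under 0.05), and each value is the log2FC of WT2 minus that of WT3. The response was lower in WT2 for Ifi44 (-0.80), Jade3 (-0.70), Gbp3 (-0.62), Enc1 (-0.57), Rp2 (-0.54), Fchsd2 (-0.52), Epsti1 (-0.49), Ifi47 (-0.47), Rtp4 (-0.47), Ifi203 (-0.46), Igtp (-0.44), Gsap (-0.43), Gm8995 (-0.37), Parp9 (-0.34), Bmp2k (-0.33) and Gm28177 (-0.32). It was higher in WT2 for Cytip (0.76), Tbk1 (0.35) and Ets2 (0.28). Groups of 3 libraries were not tested for outlying samples.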

How the results depend on the processing

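The count of 19 genes with a different response became 132 with no filter on low counts, 45 in DESeq2, and 45 with the GC trend removed and library 1 of WT3 IFNG left out. Leaving out 1 library at a time gave 7 to 178 genes, with the library behind each value named above. The cause was not tested. The other alternatives gave 15 to 25 genes. All 19 differences kept their sign in every alternative. Leave-one-out slopes were 0.948 to 0.977 and leave-one-out median differences over the induced genes -0.15 to -0.12. With a WT1 log2FC above 2 as the limit the median was -0.23, over fewer genes. Counts for the response of WT2 ranged from 3797 to 4806 and those of WT3 from 4506 to 5427. The median difference over all genes changed sign with RLE factors (-0.0044), DESeq2 (-0.0047), the 30-library fit (-0.0054), and without library 1 of WT2 IFNG, library 3 of WT3 UT or library 3 of WT3 IFNG (-0.010 to -0.0092). No paired analysis was possible because the columns carry no replicate number, so the planned replicate blocks, shared or within clone, were not run.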
